A study of Homo sapiens with 6 samples.

Results

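Mitochondrial ribosomal protein genes were taken from the genome-wide CRISPRi screen by name, as every gene whose symbol is MRPL or MRPS followed by a number. They numbered 76 of the 18905 genes measured. The sgRNA list held 770 entries for them, 10 per gene and 20 for MRPL30, of which 386 were analysed. Of the other 384 entries, 379 had no read in any library and 5 were read in the libraries of a sublibrary other than that of their gene. The rule used names and no measured value, although earlier results of these data were known when the genes were chosen.

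The cells were HEK293 FLP-In, a human embryonic kidney line, that expressed a delta opioid receptor with the C-terminal recycling motif of the mu opioid receptor fused to APEX2, together with dCas9-KRAB-BFP. APEX2 is a peroxidase that turns Amplex UltraRed (AUR) into a fluorescent product, and dCas9-KRAB is an inactive Cas9 carrying a repressor, which an sgRNA brings to a promoter to shut it down. Clonal populations of these cells had been expanded and tested for knockdown. Cells were transduced at a multiplicity of about 0.2 with the sgRNA library in the 3 pools H17, H23 and H456, selected with puromycin at 0.75 μg/ml, grown for 8 days by the labels, given 10 μM DADLE, an opioid peptide, for 90 min and reacted with 100 μM AUR. For each pool the bottom and the top fluorescence quartile gave 1 library each, so that there were 6 libraries, all of them from treated cells, and no replicate. Every sort was thus compared within 1 experiment, and P values refer to sgRNAs and not to repeated sorts.

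Mitochondrial ribosomes are built in the mitochondrial matrix from ribosomal RNAs encoded by mitochondrial DNA and from proteins that are encoded in the nucleus and imported. They make a small set of membrane proteins, all of them core subunits of the respiratory chain complexes and of the ATP synthase. MRPL genes encode proteins of the large subunit, which forms the peptide bond, and most MRPS genes encode proteins of the small subunit, which reads the mRNA. Many of the proteins have bacterial counterparts, whereas others are found only in mitochondria. Because these genes are transcribed in the nucleus, dCas9-KRAB can silence them at their promoters.

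Promoters are shown for the 4 members of lowest unadjusted P against the nontargeting control (NTC) sgRNAs, because CRISPRi acts at these sites and sgRNA sequences were not available here. Each runs from 250 bases before to 50 bases after a start site that RefSeq places on GRCh38.p14. Capitals mark an ETS core (CCGGAAG), an NRF1 core (GCATGCGC) or a YY1 core (AAGATGGC) on either strand, binding motifs of factors known to act at nuclear genes for mitochondrial proteins. No capitals mean only that none of these letters occurred in the window.
MRPL49 (chr11:65122071-65122370, plus strand): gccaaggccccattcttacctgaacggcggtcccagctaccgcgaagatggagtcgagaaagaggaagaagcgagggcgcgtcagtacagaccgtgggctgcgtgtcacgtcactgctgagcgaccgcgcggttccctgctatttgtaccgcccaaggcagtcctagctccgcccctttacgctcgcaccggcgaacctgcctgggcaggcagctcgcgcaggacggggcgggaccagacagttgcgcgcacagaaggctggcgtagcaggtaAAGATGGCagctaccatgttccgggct
MRPL3 (chr3:131502922-131503221, minus strand): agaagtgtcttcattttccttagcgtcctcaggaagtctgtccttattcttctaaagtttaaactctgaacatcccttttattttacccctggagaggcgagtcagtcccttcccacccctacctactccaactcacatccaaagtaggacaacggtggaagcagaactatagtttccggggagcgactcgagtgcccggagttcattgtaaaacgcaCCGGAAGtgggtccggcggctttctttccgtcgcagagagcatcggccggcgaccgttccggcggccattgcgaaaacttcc
MRPL12 (chr17:81703117-81703416, plus strand): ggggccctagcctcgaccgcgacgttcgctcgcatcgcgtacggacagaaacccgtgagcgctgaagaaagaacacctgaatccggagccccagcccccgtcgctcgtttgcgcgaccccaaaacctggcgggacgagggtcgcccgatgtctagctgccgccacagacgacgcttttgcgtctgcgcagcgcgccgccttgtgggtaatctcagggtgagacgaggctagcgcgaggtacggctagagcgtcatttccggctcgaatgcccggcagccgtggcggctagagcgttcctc
MRPS7 (chr17:75261629-75261928, plus strand): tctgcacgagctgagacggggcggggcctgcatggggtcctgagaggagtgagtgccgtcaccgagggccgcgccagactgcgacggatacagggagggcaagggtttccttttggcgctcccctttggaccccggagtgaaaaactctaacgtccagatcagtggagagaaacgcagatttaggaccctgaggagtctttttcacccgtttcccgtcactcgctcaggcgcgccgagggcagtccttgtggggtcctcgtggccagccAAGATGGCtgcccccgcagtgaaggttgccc
The window of MRPL49 and that of MRPS7 each held 1 YY1 core shortly after the start site, that of MRPL3 held 1 ETS core before it, and that of MRPL12 held none of the 3. MRPL49 has a further start site in the same table, and the window shown covers it as well as the start of FAU on the opposite strand. The window belonging to that further start site, not shown, held none of the 3.

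The table held 83 promoters of 67 of the members. An ETS core occurred in 32 of them (38.6%), a YY1 core in 23 (27.7%) and an NRF1 core in 6 (7.23%). Over all 35116 promoters of the table these shares were 10.3%, 2.89% and 3.05%, and over the 21217 promoters of genes measured in the screen they were 13.0%, 3.64% and 3.73%. At least 1 of the 3 motifs was found in 46 member promoters (55.4%), against 18.6% of the promoters of measured genes. A match is a run of letters and not a measured binding site.

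Each sgRNA was scored by the log2 ratio of its read share in the top quartile to that in the bottom quartile, set to 0 at the NTC median, which is called its phenotype. Negative values mean less AUR signal in the cells that carried it. Gene phenotypes are means over sgRNAs and are given with the SD over those sgRNAs. Totals ranged from 23426498 to 50486627 reads per library. Of the members, 65 were in H456 and 11 in H23, and each had 5 sgRNAs at the start site used, except MRPL51 with 6. The 381 sgRNAs concerned had 120 to 3900 reads in the bottom quartile with a median of 1574, and 50 to 4187 in the top quartile with a median of 935. Counting error gave a gene phenotype an SD of 0.022 to 0.055. The SE over sgRNAs was 0.025 to 0.24 and was larger than the counting SD of the same gene in all members but MRPS24.

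No mitochondrial ribosomal protein gene was called. An exact two-sided Mann-Whitney test against the NTC sgRNAs, adjusted over all 18905 genes by Benjamini-Hochberg, called 0 of 76 members at 0.05 in either direction, and the lowest adjusted P was 0.30 (MRPL49). Over all genes, 72 were called on the negative side (0.381%) and 18 on the positive side (0.0952%). None of the members reached the pseudogene threshold, a score from effect and P set so that fewer than 10% of the items above it are made of NTC sgRNAs, which 222 genes did (1.17%). At an unadjusted exact P below 0.05 there were 2 members with a negative phenotype, MRPL49 and MRPL3, and 2 with a positive one, MRPS7 and MRPL12. The corresponding shares of all genes were 4.05% and 4.06%, or 4.89% and 3.46% within H23 and H456, so that 2 of 76 in each direction lay near or below the background.

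Values of the 76 genes lay between −0.25 and 0.33, with 74 within 0.25 of 0 and 51 within 0.1. The smallest absolute phenotype of a gene that was called in H456 was 0.38, and in H23 it was 0.41. No member exceeded these values. The NTC sgRNAs had an SD of 0.30 in H456 and 0.28 in H23, and a smaller effect of a member may have gone undetected with 5 sgRNAs and 1 sort. The median over members was −0.03 and 53 of 76 were negative, against a median of 0.00135 and 49.6% negative over all genes and −0.00537 and 51.7% in H23 and H456. Single sgRNAs did not show the same tilt, as 195 of 381 (51.2%) were negative. Without the sgRNA of largest absolute phenotype of each gene, 39 of 76 members were negative and the median was −0.00631. Over all genes the median was then 0.00687. With the mean of the 3 strongest sgRNAs of each gene, the median was −0.068 for members and 0.000326 for all genes. With both libraries thinned to equal depth, it was −0.039 for members and 0.00187 for all genes.

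**Figure D1:**
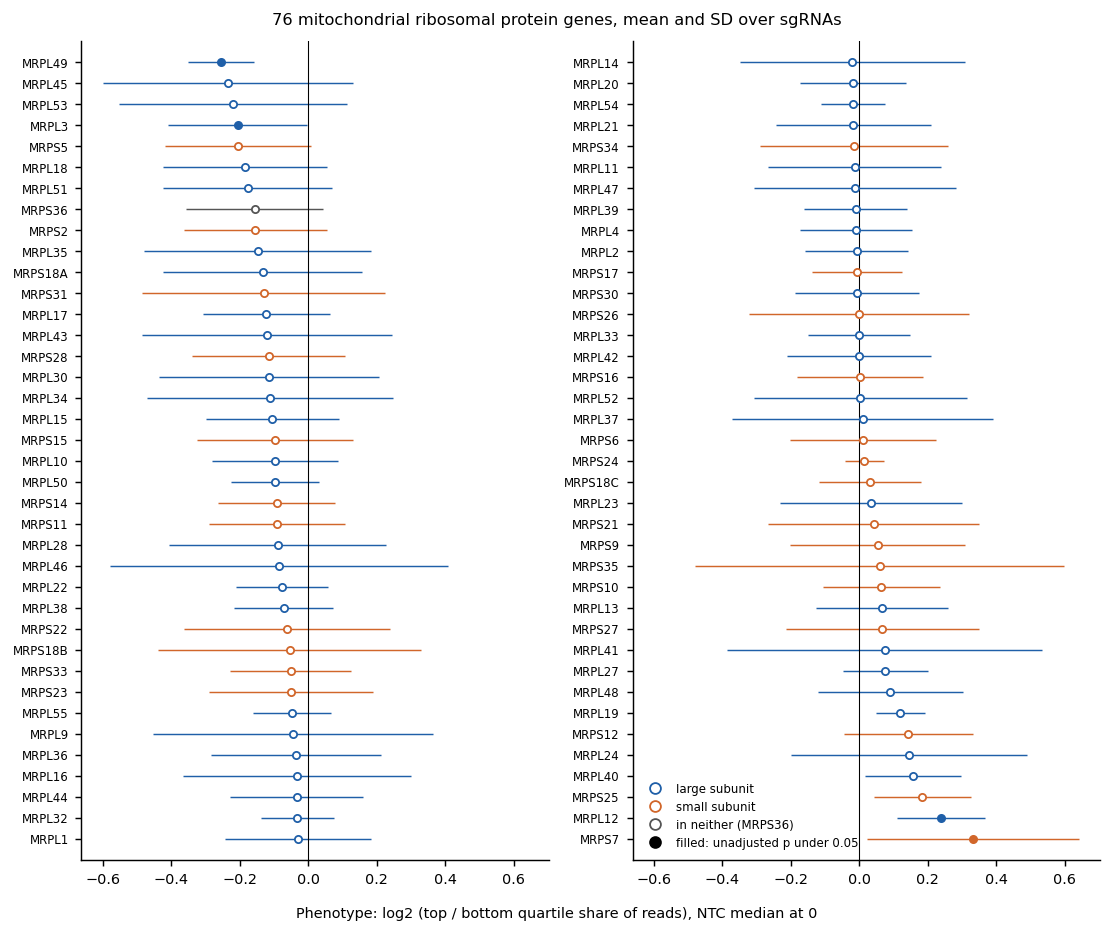
Phenotypes of the 76 mitochondrial ribosomal protein genes, ordered from lowest to highest in both columns. The x axis is log2 of the share of reads in the top over the bottom quartile with the NTC median at 0, points are means and bars the SD over 5 or 6 sgRNAs, and colours give the subunit. Members range from −0.25 (MRPL49) to 0.33 (MRPS7), with MRPS7 set off from the next, MRPL12, at 0.24. Most bars cross 0, and the 4 filled points are those with an unadjusted exact P below 0.05.

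The lowest phenotype belonged to MRPL49, a large-subunit protein without a bacterial counterpart. In H456 an sgRNA at the NTC median had 0.588 top reads per bottom read, because the top library was the shallower one. The 5 MRPL49 sgRNAs had 2018, 1629, 1532, 1405 and 2749 reads in the bottom quartile. In the top quartile they had 912, 767, 755, 736 and 1450 reads, in the same order. All 5 lay below the NTC ratio, with phenotypes of −0.38, −0.32, −0.25, −0.17 and −0.16. The gene value was −0.25 ± 0.10 (SD, 5 sgRNAs, exact Mann-Whitney test, P = 0.0055, adjusted P = 0.30).

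MRPL3, the counterpart of bacterial ribosomal protein L3, had 1326, 2432, 1473, 1436 and 1595 bottom reads. Its top reads were 537, 1190, 802, 804 and 906. The phenotypes were −0.54, −0.26, −0.11, −0.07 and −0.05, so that 1 sgRNA lay well below the other 4. Together they gave −0.21 ± 0.20 (5 sgRNAs, exact test, P = 0.046, adjusted P = 0.60). MRPL18, whose bacterial counterpart binds 5S rRNA, was the only other member with every sgRNA negative, at −0.18 ± 0.24 and values from −0.59 to −0.0034. Across H23 and H456, 4.94% of genes had every sgRNA negative, and 3 of 76 members did.

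In the other low members at least 1 sgRNA was positive. MRPL45, which lies near the exit of the peptide tunnel, had a phenotype of −0.24 ± 0.37. Its lowest sgRNA, with 1699 bottom and 549 top reads, stood at −0.86 and the other 4 lay between −0.19 and 0.06. MRPL53, a mitochondria-specific large-subunit protein, had −0.22 ± 0.33, with 1 sgRNA at −0.73 and 2 above 0. MRPS5, the counterpart of bacterial S5, had −0.20 ± 0.21 and split into 3 sgRNAs from −0.38 to −0.34 and 2 at 0.03. MRPL51 was at −0.18 ± 0.25 over 6 sgRNAs. MRPS36, now known as a component of the 2-oxoglutarate dehydrogenase complex and counted in neither subunit, was at −0.16 ± 0.20. The unadjusted exact P of these 5 genes ranged from 0.070 (MRPS5) to 0.15 (MRPL53).

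At the other end, MRPS7, the counterpart of bacterial S7 in the head of the small subunit, had 2235, 1226, 498, 915 and 447 bottom reads. The top reads were 1313, 859, 350, 665 and 470. One sgRNA was at 0, 3 were at 0.25, 0.26 and 0.31, and the fifth, with the fewest bottom reads, was at 0.84. The gene value was 0.33 ± 0.31 (5 sgRNAs, exact test, P = 0.0099, adjusted P = 0.38), and without the highest sgRNA it was 0.20. MRPS7 was less abundant than the NTC sgRNAs, at −0.27 on the log2 scale.

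MRPL12, the stalk protein that corresponds to bacterial L7/L12, had 1368, 1569, 2106, 713 and 1088 bottom reads. In the top quartile the counts were 831, 1056, 1461, 527 and 830. All 5 sgRNAs were positive, at 0.05, 0.20, 0.24, 0.33 and 0.38, and the gene was at 0.24 ± 0.13 (exact test, P = 0.013, adjusted P = 0.40). Of these sgRNAs 4 are also listed for SLC25A10, as described further on.

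MRPS25 (0.18 ± 0.14), MRPL40 (0.16 ± 0.14) and MRPL19 (0.12 ± 0.07) were likewise positive with every sgRNA. With MRPL12 these were 4 of 76 members, where 4.51% of genes in H23 and H456 had every sgRNA positive. MRPL24, at 0.14 ± 0.34, rested on 1 sgRNA at 0.71 and had 2 negative ones. MRPS12, the counterpart of the bacterial decoding-site protein S12, was at 0.14 ± 0.19, and MRPL48 was at 0.09 ± 0.21. None of these 6 genes passed even the unadjusted threshold, and the lowest exact P among them was 0.053 (MRPS25).

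**Figure D2:**
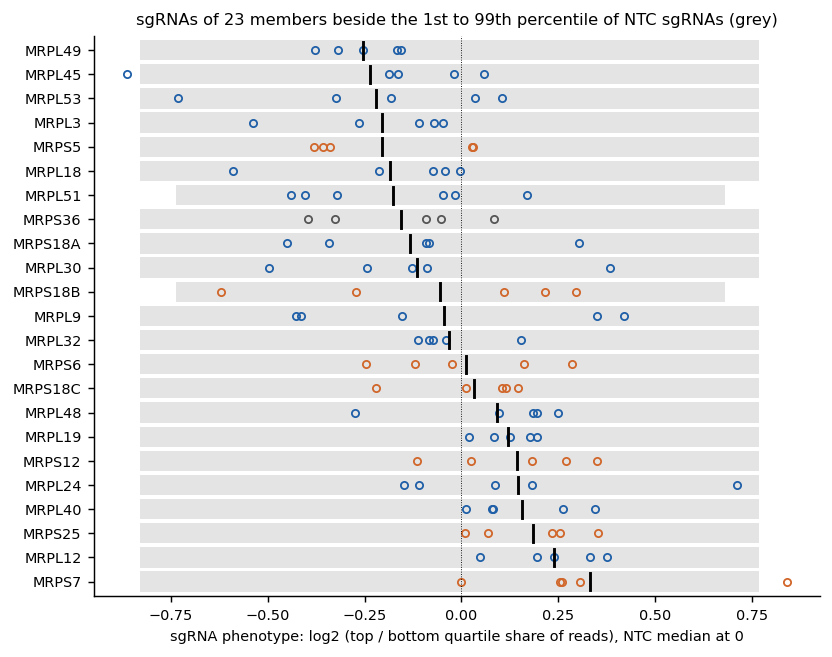
sgRNA phenotypes of the 23 members described individually. The x axis is log2 of the share of reads in the top over the bottom quartile, circles are sgRNAs at the start site used (blue large subunit, orange small subunit, grey MRPS36), black bars are gene means and grey boxes show where NTC values of that sublibrary lie, from the 1st to the 99th percentile. Only the lowest sgRNA of MRPL45 and the highest of MRPS7 lie outside the boxes.

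Few member sgRNAs were extreme. Of the 381 sgRNAs 1 fell below the 1st percentile of NTC values (that of MRPL45, −0.86), where 1.35% of all sgRNAs in H23 and H456 did. Above the 99th percentile lay 3, of MRPS7 (0.84), MRPL41 (0.77) and MRPS35 (0.70), where 1.01% of all sgRNAs did. The MRPS35 sgRNA had 135 bottom and 260 top reads and that of MRPL41 had 411 and 834, both in H23. The sgRNAs of a member spanned 39 to 1126 bases around the start site, with a median of 371.

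Members also differed in how well their sgRNAs matched each other. MRPS24, a small-subunit protein, had the narrowest spread, at 0.01 ± 0.06 with values from −0.05 to 0.09. MRPL19 and MRPL54 followed, at 0.12 ± 0.07 and −0.02 ± 0.09, and MRPL49 came next with its SD of 0.10. At the wide end, MRPS35 was at 0.06 ± 0.54, MRPL46 at −0.08 ± 0.49 and MRPL41 at 0.07 ± 0.46. The sgRNAs of these 3 lay on both sides of 0. The 53 members outside the 23 described individually lay between −0.15 (MRPS2) and 0.08 (MRPL27), and the lowest unadjusted exact P among them was 0.14 (MRPS2).

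Members were also grouped by subunit and by origin. The 49 proteins of the large subunit, counted with MRPS18A and MRPS30, had a median of −0.03, ranged from −0.25 to 0.24 and were negative in 38 cases. The 26 small-subunit proteins had a median of −0.00444, ranged from −0.20 to 0.33 and were negative in 14. Among 48 proteins with a bacterial counterpart the median was −0.03 and 33 were negative, and among 27 mitochondria-specific ones it was −0.02 and 19 were negative. Differences between these groups were not tested.

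MRPS18A, MRPS18B and MRPS18C are paralogs that correspond to 1 bacterial protein, the first in the large subunit and the others in the small one. MRPS18A was at −0.13 ± 0.29 and MRPS18C at 0.03 ± 0.15. MRPS18B, the only one of them in H23, was at −0.05 ± 0.38, with sgRNAs from −0.62 to 0.30, and was positive by their median (0.11). All 3 were within 1 SD of 0.

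Some member sgRNAs are not specific to their gene in the library, since 22 of 386 have the same position and the same reads under a second gene. They belong to 7 members. MRPL12 shares 4 of 5 with SLC25A10, the mitochondrial dicarboxylate carrier. MRPL30 shares 8 of 10, with C2orf15 at 1 start site and LIPT1, a lipoyltransferase, at the other. MRPS6 shares 4 of 5 with SLC5A3, a myo-inositol transporter, and the start sites of both genes coincide in the GRCh38 table. MRPL9 shares 2 of 5 with OAZ3, MRPL51 shares 2 of 6 with NCAPD2, a condensin subunit, and MRPL32 and MRPL49 share 1 of 5 each with PSMA2, a proteasome subunit, and FAU, a precursor of a cytosolic ribosomal protein. Phenotypes were −0.11 ± 0.32 for MRPL30, −0.04 ± 0.41 for MRPL9, −0.03 ± 0.11 for MRPL32 and 0.01 ± 0.21 for MRPS6, and the sign of MRPL30, MRPL9 and MRPS6 turned when the strongest sgRNA was left out.

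Of the shared sgRNAs whose second gene was held by another sublibrary, 7 had enough reads in both and were thus measured in 2 separate sorts. The MRPL49 and FAU sgRNA had 1629 bottom and 767 top reads in H456, a phenotype of −0.32, and 1577 and 1879 reads in H23, where it was 0.00604. The 3 MRPL12 sgRNAs, at 0.20, 0.24 and 0.33 in H456, were at −0.45, 0.11 and −0.02 in H17. The 2 MRPL30 sgRNAs at −0.13 and −0.09 in H456 were at −0.33 and −0.65 in H17. For MRPL9 the sgRNA was at −0.41 in H456 and at 0.63 in H17, where it had 187 bottom and 233 top reads. In all, 3 of the 7 had the same sign in both sorts, and the absolute difference was 0.13 to 1.04 with a median of 0.36. The second values of MRPL12, MRPL30 and MRPL9 come from H17, where NTC sgRNAs were more spread, with an SD of 0.47 against 0.30 in H456.

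Over the whole library 198 sgRNAs could be compared in this way, with sgRNAs of identical reads counted once. Their signs matched in 108, the median absolute difference was 0.24 and the Pearson correlation across sgRNAs was 0.15, given as a description since most of them lie near 0. Of the 5 sgRNAs behind each value, 1 was read in a second sort for MRPL49 and 3 for MRPL12, and 1 of these 4 kept its sign there. With 1 sort per sublibrary, a difference between sorts and a difference between sublibraries cannot be told apart.

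**Figure D3:**
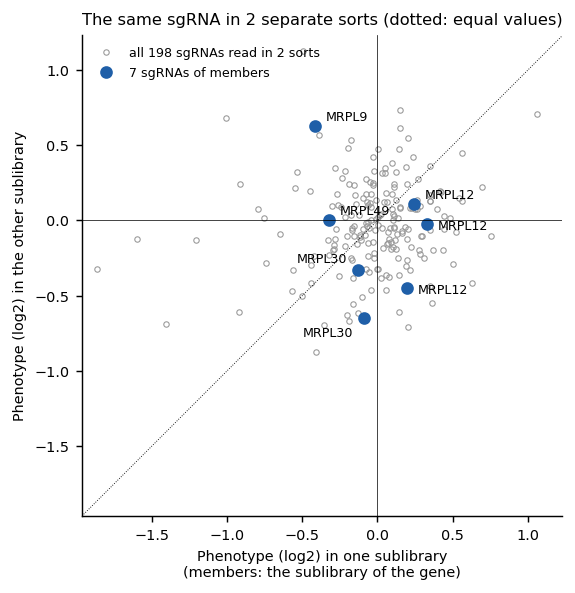
Phenotypes of the same sgRNA in 2 separate sorts, for 198 sgRNAs that the library lists under genes of 2 sublibraries and that were read in both (grey), and for the 7 of them that belong to members (blue). Both axes are log2 of the share of reads in the top over the bottom quartile, for members with their own sublibrary on the x axis, and the dotted line marks equal values. Of the 7 member sgRNAs 3 have the same sign in both sorts, and that of MRPL9 differs most, by 1.04.

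Start sites of members often lie close to those of other genes. Among 68 members found in the promoter table, directly or through an older symbol, 23 (33.8%) had the start of another measured gene within 1000 bases, against 14.1% of 14969 measured genes. In all but MRPS6 the 2 genes were on opposite strands. MRPL46 and MRPS11, 320 bases apart, are both members and were at −0.08 ± 0.49 and −0.09 ± 0.20. The start of FAU lies 49 bases from that of MRPL49, and FAU was at −0.27 ± 0.41 in H23 (5 sgRNAs, exact test, P = 0.14). MRPS7 neighbours GGA3, a trans-Golgi adaptor, at 273 bases, and GGA3 was at 0.07 ± 0.18. MRPL18 neighbours TCP1, a chaperonin subunit, at 210 bases, and TCP1 was at −0.04 ± 0.41.

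PPP1R10, which starts 597 bases from MRPS18B, had the lowest value of the neighbours, at −0.50 ± 0.44 in H17 (exact test, P = 0.011, adjusted P = 0.39). The 23 members with such a neighbour had a median of −0.03 with 15 negative, and the 45 without one had a median of −0.02 with 32 negative. MRPL12 counts among the 45 by this distance rule, although 4 of its 5 sgRNAs are also listed for SLC25A10. The part of neighbouring genes in the members' values was not tested.

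The abundance of an sgRNA was log2 of its mean share of reads in both quartiles, with the NTC median at 0. It is a readout of how many cells carried the sgRNA at the sort and includes how much of it was in the pool at the start, which was not analysed here. Members had a median of 0.30 and 59 of 76 lay above 0, from −0.97 (MRPL46) to 0.99 (MRPL27). In H456 the 65 members had a median of 0.37, all 6935 genes a median of −0.10 and the 343 olfactory receptor genes, known from olfactory neurons, a median of −0.73. In H23 the 11 members had a median of −0.09 and all genes −0.04. By their names, H17, H23 and H456 may each combine several sublibraries of the source library. What these contributed to the differences in abundance was not tested.

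Abundance and phenotype showed little relation over all members, with a Pearson correlation of −0.06 across 76 genes that share libraries. It was −0.06 within H456 and −0.45 within the 11 members of H23. The SD over sgRNAs was larger for less abundant members, with a Pearson correlation of −0.51 over all 76, −0.25 within H456 and −0.83 within the 11 members of H23, and the members of largest SD, MRPS35 (0.54), MRPL46 (0.49) and MRPL41 (0.46), were all in H23. MRPL46 was also the least abundant.

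**Figure D4:**
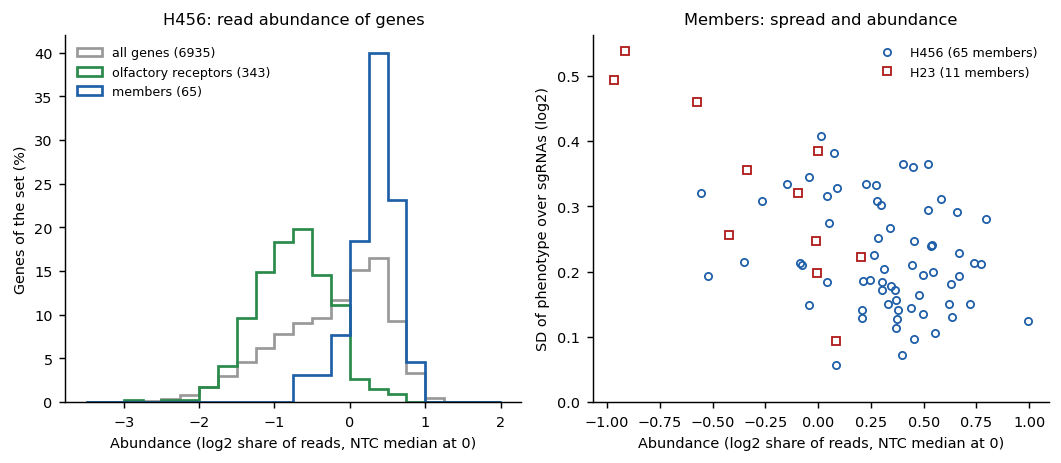
Read abundance of members. Left, share of genes in percent by abundance (log2 of the share of reads, NTC median at 0) for all 6935 genes, 343 olfactory receptor genes and 65 members of H456. Right, SD over sgRNAs against abundance for the 76 members, with circles for H456 and squares for H23. Members of H456 have a median of 0.37, above the medians of both other sets, and the 3 members of largest SD lie at abundances below −0.5 in H23.

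Other genes of mitochondrial gene expression, taken as lists, also gave values around 0. The 7 mitoribosomal proteins with other symbols, such as DAP3 and PTCD3, had a median of −0.03, from −0.25 to 0.06. The 25 genes of mitoribosome assembly and rRNA modification had a median of −0.03, and the 35 translation factors and tRNA synthetases of mitochondria had −0.03. The 17 genes of mitochondrial DNA replication, transcription and RNA processing had a median of 0.02. None of these 84 genes was called at the adjusted threshold or reached the pseudogene threshold, and NARS2, the mitochondrial asparaginyl-tRNA synthetase, was the only one with an unadjusted exact P below 0.05 (−0.36 ± 0.15, 5 sgRNAs, P = 0.0079, adjusted P = 0.35). Over all 18905 genes, 72 were called negative (0.381%), 18 positive (0.0952%), and 222 reached the pseudogene threshold (1.17%). An unadjusted exact P below 0.05 was found for 1534 of all genes. The 38 measured genes with symbols of complex I subunits had a median of −0.01 and ranged from −0.69 to 0.18. Complex I holds products of mitochondrial translation. Of these genes 0 had an unadjusted exact P below 0.05. They were taken by symbol alone, and 31 of them were in H17, where 452 of all 5951 genes had such a P. There the NTC sgRNAs had an SD of 0.47, wider than in H23 (0.28) or H456 (0.30).

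Genes with symbols of cytosolic ribosomal proteins, which make up the ribosomes of the cytoplasm, had lower values. This list, too, was taken by symbol alone. Of 88 such genes, 79 had a negative phenotype, the median was −0.25, 8 were called negative at the adjusted threshold and 22 reached the pseudogene threshold. The 8 were RPS27A, which also encodes ubiquitin (−0.84 ± 0.36), RPSA (−0.67 ± 0.29), RPS18 (−0.62 ± 0.29), RPL34 (−0.55 ± 0.15), RPL17 (−0.52 ± 0.21), RPS7 (−0.51 ± 0.28), RPL31 (−0.46 ± 0.18) and RPS6 (−0.44 ± 0.13). The median of the cytosolic list lay close to the lowest mitochondrial member. Of the cytosolic list 87 genes were in H23 and 65 of 76 mitochondrial members in H456, so that most of these values come from different sorts. Within H23, the 11 members had a median of −0.05, from −0.18 to 0.07, and 0 of them had an unadjusted exact P below 0.05. Of all 6019 genes in H23, 519 had such a P, so that few would be looked for among 11. The difference between the lists was not tested.

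**Figure D5:**
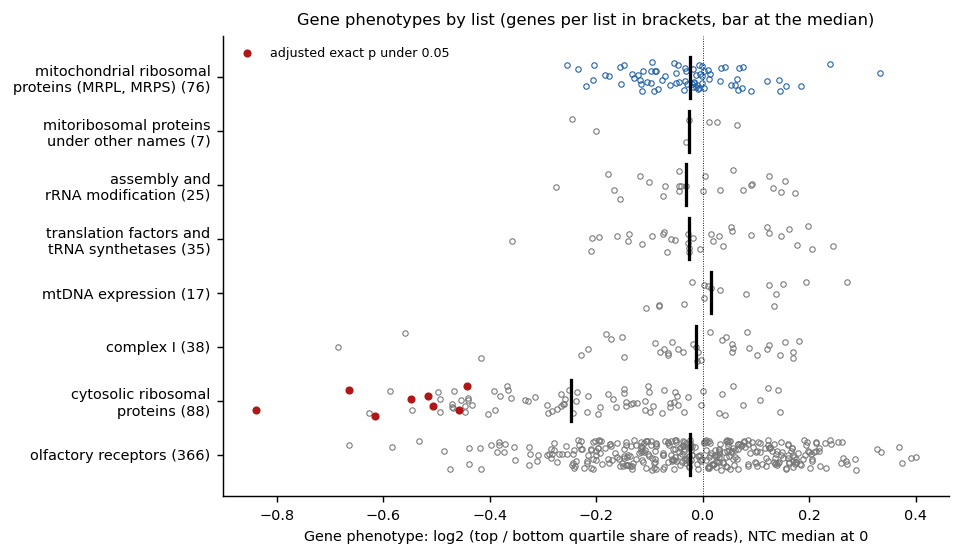
Gene phenotypes by list, each point 1 gene and black bars at the medians, with the number of genes in brackets. The x axis is log2 of the share of reads in the top over the bottom quartile, and red points are genes with an adjusted exact P below 0.05. Among these lists red points occur only for cytosolic ribosomal proteins, whose median is −0.25, whereas the 76 members have a median of −0.03 and no red point.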

How the data were processed

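Raw counts of reads per sgRNA, not normalized, were deposited by the authors, who amplified sgRNAs from genomic DNA with 27 PCR cycles, without molecular identifiers, and counted the cropped reads with ScreenProcessing. For the sgRNA positions no genome build is stated in these sources, and none are printed. Quartiles were taken from the sample titles, which disagree with the last letter of the library names. Knockdown lasted 8 days by the labels and by the paper's results, and was shorter by its methods. For the assay in intact cells the methods also give a longer agonist treatment than the labels.

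A gene belonged to the sublibrary with most of its sgRNAs at 50 reads or more. An sgRNA was analysed with 50 or more reads in either of its libraries and 10% of its reads there, and those analysed made up 97.0% to 98.2% of each library. A pair with one count of 0 had 1 added to each count. The start site of lower P, with at least 2 sgRNAs, stood for a gene. The test was an exact two-sided Mann-Whitney test against 570 (H23) or 739 (H456) NTC sgRNAs, adjusted over 18905 genes. For the score, absolute phenotype over the SD of pseudogenes was multiplied by −log10 of P, each pseudogene being 5 NTC sgRNAs. As no group had a second library, edgeR (version 4.0.16) had no residual degrees of freedom and gave only TMM factors for one alternative. Python 3.11.15 and scipy 1.17.1 were used, and the procedure was tested on simulated data. Errors cover sgRNAs and counting only.

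Members and lists were chosen with earlier results of these data known. Named were members past either threshold, the 8 lowest and the 8 highest, the 10 of lowest unadjusted P, those with shared sgRNAs and the MRPS18 paralogs, 23 in all, and of other genes those of the lists past either threshold. One gene of the rule is not reported here. GGA3, TCP1, FAU, PPP1R10, NARS2 and other neighbours, and the remaining members named, were picked after their values were seen. Of the cytosolic list the 8 genes past the adjusted P are given. Alternatives were 3 other read minimums, a pseudocount of 1 or 10, TMM factors or the median of all sgRNAs for centring, the median, the 3 strongest or all but the strongest sgRNA, pooled start sites, thinning to equal depth, olfactory receptor sgRNAs as the comparison set, and for the score a limit of 5%, one threshold and seeds 2 to 6.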

Additional observations from a re-analysis of the deposited data

Results flagged for a closer look

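Reads outside the analysed libraries were found for 9 of 364 member sgRNAs that the library lists under 1 gene, with 50 reads or more in the libraries of a sublibrary other than that of their gene. The highest was an MRPL39 sgRNA, with 1602 bottom and 920 top reads in H456 and 283 and 216 in H17, and phenotypes of −0.03 and −0.08. An MRPL53 sgRNA had 1153 and 694 reads in H456 and 102 and 296 in H23, with phenotypes of 0.03 and 1.29. Of all reads of the 364 sgRNAs, 0.716% were in other sublibraries. Where these reads came from was not tested, and no control without sgRNAs bears on it.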

How the results depend on the processing

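The count of members called at the adjusted P, 0, and of members past the pseudogene threshold, 0, was the same under every alternative run, and the lowest adjusted P of a member over them was 0.27. Some of these alternatives could not change the count. TMM factors, centring on all sgRNAs, the median and the 3 strongest sgRNAs leave the test of each gene as it was. A limit of 5% for the score can only lower the number past it. The count at an unadjusted P below 0.05 was 4 and fell to 2 without the strongest sgRNA of each gene (MRPL49 and MRPL12), which leaves fewer sgRNAs per test, and to 3 against olfactory receptor sgRNAs. The median over members, −0.03, was −0.068 with the 3 strongest sgRNAs, −0.00631 without the strongest and −0.039 after thinning, and the number of negative members ranged from 39 to 55 over the alternatives. Against olfactory receptor sgRNAs the median of members was −0.02 and that of all genes −0.02. The median abundance, 0.30, rose to 0.91 against olfactory receptor sgRNAs, which were themselves less abundant than NTC sgRNAs. Of 299 values of the 23 named members, 293 kept their direction and their side of the threshold. The direction turned for MRPS18B with the median over sgRNAs (0.11) and without the strongest (0.088), for MRPS6 likewise (−0.024 and −0.057), and without the strongest for MRPL30 (0.098) and MRPL9 (0.051), none of them called. The cause was not tested. No paired analysis was possible because each group has 1 library. The depth of 1 sort with 5 sgRNAs per gene limits what could be detected, and a P that misses the threshold does not show that a gene has no effect.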
